A study of Mus musculus with 4 samples.

Results

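The genes of the secretory pathway and the unfolded protein response were read on 4 arrays of mouse B cells. The 42 genes listed for this module cover protein entry into the endoplasmic reticulum (ER), signal peptide removal, glycosylation, folding, degradation of misfolded proteins, the stress sensors and 2 plasma cell factors. A gene was taken where the platform annotation gave a probe set to its symbol alone, which held for 41 of the 42 listed genes and 101 probe sets, out of 18194 genes and 34958 such probe sets on the array. Sec61g, the smallest subunit of the Sec61 channel, was not analysed here because its only annotated probe set is shared with another gene. Germinal centre (GC) B cells, which divide and mutate their antibody genes after antigen contact, passed a gate for B220+PNA+Fas+ cells. Naive B cells passed one for B220+PNA-Fas- cells. All cells came from adult wild-type C57BL6/J mice kept free of specific pathogens. The 4 groups were GC and naive B cells from Peyer's patches (PP, lymphoid follicles of the gut wall) of untreated mice, and GC and naive B cells from peripheral lymph nodes (pLN) of mice given TNP-KLH, a hapten on a carrier protein, in incomplete Freund's adjuvant. RNA of 3 to 5 mice was pooled for each group and run on 1 array, so no group had replicates and precision is limited by how few arrays there are. Site and immunisation cannot be told apart.

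Proteins bound for the cell surface, the organelles or secretion enter the ER through the Sec61 channel, lose their signal peptide, receive N-linked glycans and fold with the help of the lectin chaperones, the Hsp70 chaperone BiP and the disulfide isomerases. Proteins that fail to fold are carried back to the cytosol and degraded (ER-associated degradation). Unfolded proteins in the ER activate the sensors IRE1, ATF6 and PERK, whose transcription factors XBP1, cleaved ATF6 and ATF4 raise many of these genes, a response best known in the B lineage from antibody-secreting plasma cells.

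The ER stress element, the sequence through which ATF6 with NF-Y acts on chaperone genes, reads CCAAT, 9 free bases and CCACG. It was searched on both strands from 250 bases before to 50 after the gene's start in the RefSeq table of build GRCm38.p6, which held a promoter for 31 of the 41 genes. The letters were found in 7 of these 31 promoters (22.6%), against 0.137% of the 27025 genes with a promoter. All 7 are shown because they hold the recognisable regulatory sequence of the module, 5′ to 3′ on the gene's strand, with the fixed letters of the element in capitals. In Calr and Creld2, and in the second of the elements of Hsp90b1, the element lies on the other strand and appears as CGTGG, 9 bases and ATTGG.
Hspa5 (chr2:34772005-34772063, + strand): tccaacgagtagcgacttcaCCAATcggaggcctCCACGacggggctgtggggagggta
Calr (chr8:84847055-84847113, - strand): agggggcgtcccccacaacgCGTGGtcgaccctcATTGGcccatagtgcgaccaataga
Hsp90b1 (chr10:86705513-86705676, - strand): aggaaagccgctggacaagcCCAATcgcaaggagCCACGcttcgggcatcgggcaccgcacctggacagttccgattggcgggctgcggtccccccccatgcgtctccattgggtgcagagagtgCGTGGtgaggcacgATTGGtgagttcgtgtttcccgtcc
Canx (chr11:50325780-50325838, - strand): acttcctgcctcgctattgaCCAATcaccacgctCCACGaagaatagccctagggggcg
Pdia6 (chr12:17266471-17266529, + strand): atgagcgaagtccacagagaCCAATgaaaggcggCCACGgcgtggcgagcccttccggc
Dnajc3 (chr14:118937807-118937865, + strand): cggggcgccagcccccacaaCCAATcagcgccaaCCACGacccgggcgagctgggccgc
Creld2 (chr15:88819500-88819558, + strand): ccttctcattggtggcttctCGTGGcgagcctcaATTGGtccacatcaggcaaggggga
The XBP1 element TGACGTGG was found in 0 of the 31 promoters and in 0.714% of all genes with a promoter. The ATF4 element TGATGCAA was found in 1, that of Herpud1, and in 1.03% of all. A match is a run of letters in this window, not a measured binding site.

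Signals are array intensities scaled so that the mean of each array, without its top and bottom 2% of probe sets, is 500. The detection level was the 90th percentile of 98 probe sets of genes of other tissues, and lay at 85.5 for GC PP, 133.1 for naive PP, 32.4 for GC pLN and 73.5 for naive pLN cells. Of the 41 genes, 38 were above it on all 4 arrays. Ssr2 and Mzb1 were below it on the naive PP array, and Pdia4 on both naive arrays. The labels were checked against markers: the 6 measured GC markers were all above the level on both GC arrays, against 2 on the naive PP and 3 on the naive pLN array, and the 4 measured B cell markers on all 4 arrays. Of other cells, T cell markers were above the level for 5 of 7 genes on the GC PP and 6 on the GC pLN array, against 2 on the naive PP and 5 on the naive pLN array. Their summed signal ran the other way, at 3077 and 5207 against 15190 and 10650, most of it Cd2, and the levels themselves differ between arrays. Cd3d, Cd3e and Cd3g had 235.9, 244.1 and 203.7 in GC PP cells, against 43.2, 74.1 and 12.9 in naive PP cells. In pLN they had 106.4, 95.3 and 74.6 in GC cells, against 84.1, 95.8 and 52.0 in naive cells. Cd8a was lower in GC cells in both tissues, and Cd4 in pLN only. Macrophage markers were above the level for 3 and 4 of 8 genes in GC cells, against 2 and 3 in naive cells. Signs of RNA quality moved with cell type: for Gapdh, the 3′ control signal over the 5′ one was 1.67 (PP) and 1.48 (pLN) in GC cells, against 96.4 and 18.7 in naive cells. The corresponding Actb ratios were 1.82 and 1.52 in GC cells, against 67.2 and 12.2 in naive cells. Signals of different genes are not set against each other, since probe sets differ in how brightly they bind.

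The first comparison was GC against naive B cells. More of the module was higher in GC cells than lower: by limma with tissue as a block (Benjamini-Hochberg adjusted p under 0.05), 17 of 41 genes (41.5%) rose and 2 (4.88%) fell, against 22.9% and 22.6% of the 10191 genes tested (45.5% in either direction). Of the TRAP complex 3 of 4 subunits, the lectin chaperones calreticulin and calnexin, accessory subunits of the signal peptidase and the B cell cochaperone Mzb1 were among those that rose, while the master chaperone Hspa5 (BiP) and the transcription factor Atf4 had negative log2 folds (GC minus naive) and did not pass. The median log2 fold was 0.76 over the module (1.24 in PP and 0.58 in pLN) and -0.07 over all tested genes. The signs of RNA quality given above split the arrays in the same way. Cell type and RNA quality therefore cannot be told apart in any GC against naive value here. At an unadjusted p under 0.05 there were 24 of 41 genes, and 5477 of 10191 overall. With 1 array per group, these p-values do not measure variation between mice. Their error is how far the tissues disagree (1 residual degree of freedom), moderated towards a spread estimated over all tested genes (prior 10.2). The fits with 1 array left out, here and below, carried no tissue block. They therefore changed the pairing and the error term as well as the arrays. Left-out arrays moved the counts: 11 rose and 0 fell without the GC PP array, 12 and 0 without the GC pLN array, 19 and 10 without the naive PP array, and 22 and 11 without the naive pLN array. On the signals as deposited, which differ in overall level, the split was 17 higher and 6 lower. Some plasma cell markers also moved with cell type. Jchain had 10620 in GC PP and 9253 in GC pLN cells, against 827.4 in naive PP and 1707 in naive pLN cells (log2 3.04, limma adjusted p = 0.00037). Prdm1, the regulator of plasma cell differentiation, was also called higher, with a log2 fold of 2.40. Both its naive signals were below the detection level, so it entered the test only through its GC arrays. The other 5 tested plasma cell markers, among them Xbp1, Irf4 and Igha, did not pass, and the part of plasma cells in the module's difference was not tested.

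**Figure D1:**
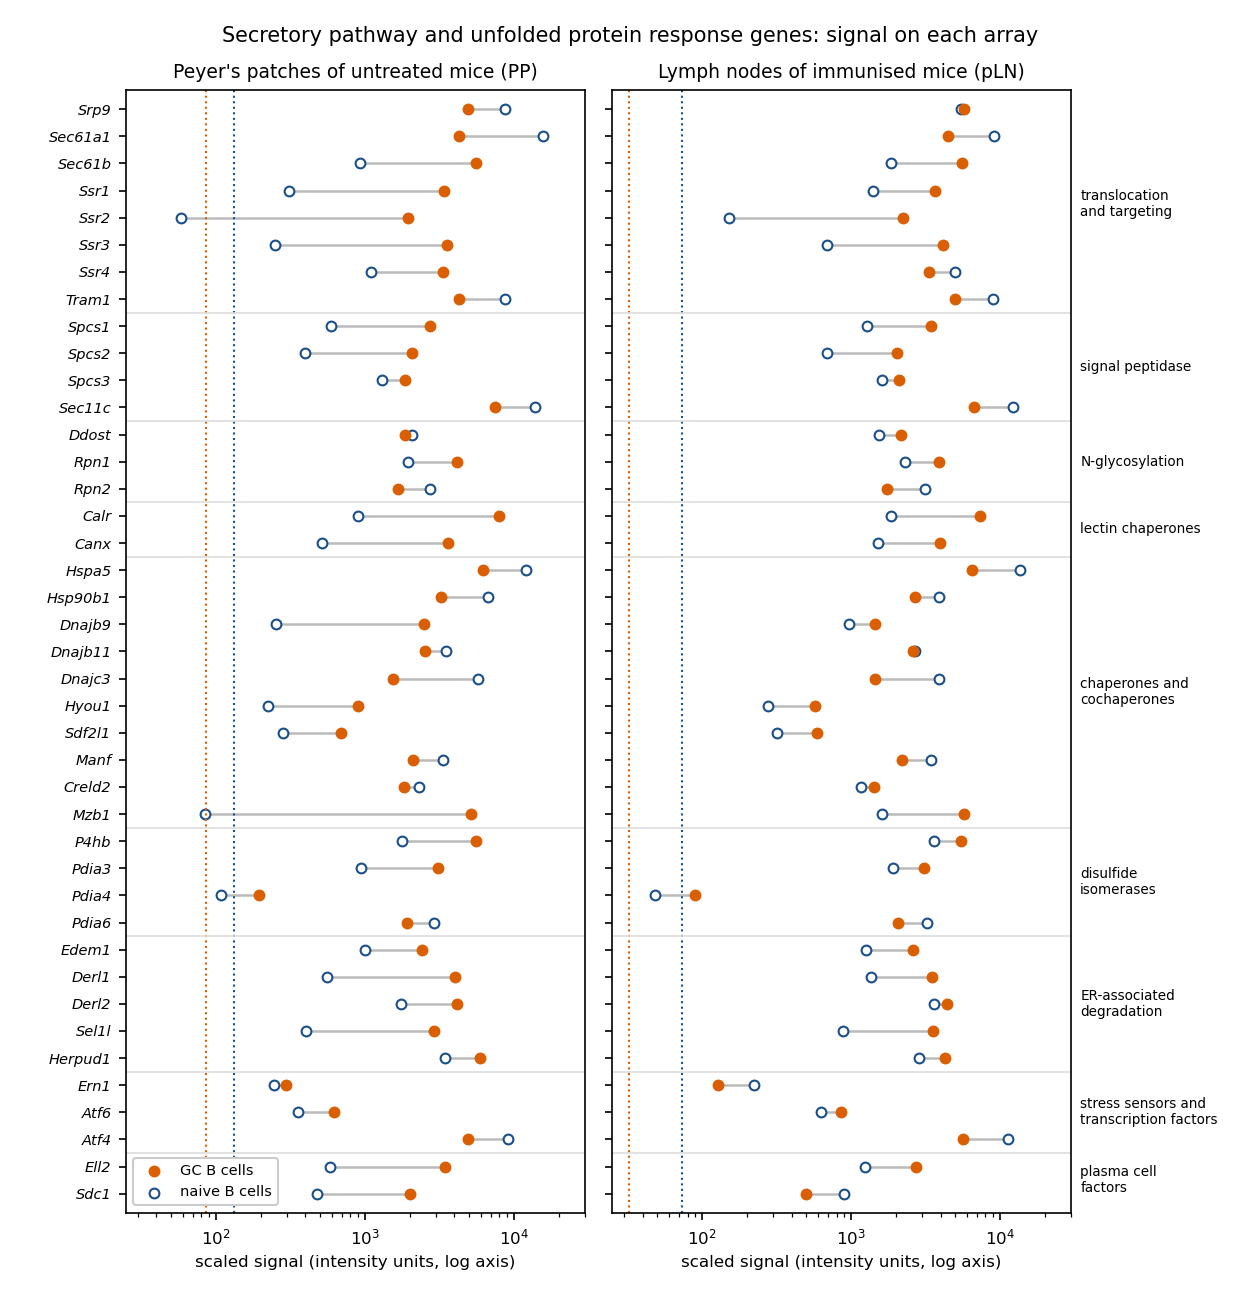
Scaled signal of each of the 41 genes (log axis, intensity units) on the GC arrays (filled) and naive arrays (open) of PP (left) and pLN (right), ordered by role. Dotted lines mark the detection levels of the GC (orange) and naive (blue) arrays; the naive points of Ssr2 and Mzb1 lie left of the blue line in PP only, those of Pdia4 in both tissues.

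The counts by role below rest on few genes each and are to be read against the 22.9% higher and 22.6% lower of all tested genes. Where the GC arrays of a gene are said to lie apart from its naive arrays, this only restates its signals. The share of all tested genes that separate so is not given, and the separation adds nothing to a call. Entry into the ER was the role with the greatest number of genes that rose: 4 of 8 did (Ssr1, Ssr2, Ssr3 and Sec61b) and 1, Sec61a1, fell. Ssr1 to Ssr4 encode the subunits of TRAP, which sits at the Sec61 channel and helps nascent chains through. Ssr2 had signals of 1968 in GC PP and 2244 in GC pLN cells, against 58.7 in naive PP and 152.1 in naive pLN cells. Its log2 fold was 4.26 ± 0.43 (SE of the fit, limma adjusted p = 7.15e-05), at least 14.8-fold higher in GC cells with the naive PP array, where it was below the detection level, set to that level. Ssr3 stood at 3580 in GC PP and 4178 in GC pLN cells, against 251.5 in naive PP and 694.2 in naive pLN cells (9.26-fold, log2 3.16 ± 0.41, limma adjusted p = 0.000265). Both GC arrays lay far above both naive arrays for these genes. Ssr1 gave 3411 in GC PP and 3660 in GC pLN cells, against 312.9 in naive PP and 1406 in naive pLN cells (5.33-fold, log2 2.38 ± 0.47, limma adjusted p = 0.00252). The fourth subunit, Ssr4, differed by tissue on its brightest probe set. Its signal was 3367 in GC PP cells against 1105 in naive PP cells, and 3345 in GC pLN cells against 4999 in naive pLN cells. Ssr4 did not pass (log2 0.51 ± 0.49, limma adjusted p = 0.414). Another of its probe sets was lower in GC cells in both tissues (log2 -1.11, limma adjusted p = 0.0337 over all probe sets). A further, dimmer probe set was higher in both (log2 0.93).

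The channel itself gave opposite readings for its subunits. Sec61b, the small beta subunit, had 5624 in GC PP and 5607 in GC pLN cells, against 929.5 in naive PP and 1857 in naive pLN cells, and rose 4.27-fold (log2 2.08 ± 0.40, limma adjusted p = 0.00204). Sec61a1, the pore-forming subunit, had 4321 in GC PP and 4481 in GC pLN cells, against 15683 in naive PP and 9087 in naive pLN cells, and fell by 1.44 ± 0.43 on the log2 scale (limma adjusted p = 0.0198). The GC arrays lay on opposite sides of the naive arrays for the 2 subunits, without overlap in either. The mean of all Sec61a1 probe sets gave 0.12 and did not keep the call (limma adjusted p = 0.785). That mean includes dim probe sets that were not tested, with log2 folds of 0.33 and 1.58. The Sec61a1 call rests on the gene's brightest probe set: the other 3 tested ranged from -0.38 to 0.73. It was also lost with cyclic loess scaling (-0.66, limma adjusted p = 0.128) and without the GC PP (-1.41, limma adjusted p = 0.198) or the GC pLN array (-1.46, limma adjusted p = 0.177). Tram1, a membrane protein beside the channel, had 4289 in GC PP and 4964 in GC pLN cells, against 8703 in naive PP and 9024 in naive pLN cells, and missed the threshold (log2 -0.94 ± 0.41, limma adjusted p = 0.079), which it passed on the deposited signals (0.0282) and with no tissue block (0.0413). Srp9, a subunit of the signal recognition particle, which brings ribosomes to the ER, had a log2 fold of -0.38 (limma adjusted p = 0.476).

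Signal peptidase, which cuts the signal peptide from the entering chain, had 2 of 4 genes higher, both accessory subunits. Spcs1 gave 2736 in GC PP and 3458 in GC pLN cells, against 591.6 in naive PP and 1290 in naive pLN cells (3.52-fold, log2 1.80 ± 0.38, limma adjusted p = 0.00358). Spcs2 gave 2070 in GC PP and 2037 in GC pLN cells, against 398.4 in naive PP and 693.2 in naive pLN cells (3.91-fold, log2 1.94 ± 0.39, limma adjusted p = 0.0027). In both, the lower GC array was above the higher naive array, though Spcs1 did not pass without the GC pLN array (1.63, limma adjusted p = 0.0727). The catalytic subunit Sec11c had 7497 in GC PP and 6674 in GC pLN cells, against 13847 in naive PP and 12257 in naive pLN cells, and did not pass (log2 -0.88 ± 0.43, limma adjusted p = 0.118), though it did on the deposited signals (0.0493). Its dimmer probe set pointed the other way, at 1.67 with 1331 in GC PP and 1113 in GC pLN cells, against 286.5 in naive PP and 481.6 in naive pLN cells. Spcs3, which is needed for peptidase activity, had a log2 fold of 0.44 and did not pass.

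None of the 3 listed subunits of the oligosaccharyltransferase, which attaches the N-glycan, passed the main test. Rpn1 came nearest, with 4151 in GC PP and 3913 in GC pLN cells, against 1954 in naive PP and 2322 in naive pLN cells (log2 0.92 ± 0.37, limma adjusted p = 0.0652). Its 5 tested probe sets were all positive, from 0.42 to 1.58, and it passed with quantile normalization (limma adjusted p = 0.00806), cyclic loess (0.0122), an offset of 100 (0.0461) and no tissue block (0.0452). Ddost and Rpn2 had log2 folds of 0.16 and -0.77, and Rpn2 was called lower with quantile normalization (limma adjusted p = 0.0433).

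Both lectin chaperones rose. Calreticulin (Calr) and calnexin (Canx) hold new glycoproteins by their trimmed glycans until they are folded. Calr had 8012 in GC PP and 7344 in GC pLN cells, against 904.1 in naive PP and 1862 in naive pLN cells (5.91-fold, log2 2.55 ± 0.41, limma adjusted p = 0.000803). Canx had 3644 in GC PP and 3971 in GC pLN cells, against 515.4 in naive PP and 1514 in naive pLN cells (4.31-fold, log2 2.09 ± 0.42, limma adjusted p = 0.00271). The 3 probe sets of each gene were all higher in GC cells, from 2.30 to 3.64 for Calr and from 1.43 to 2.09 for Canx.

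The Hsp70 and Hsp90 chaperones and their partners were mixed: 3 of 10 rose (Mzb1, Dnajb9 and Hyou1), 1 fell (Dnajc3) and 6 did not pass, with a median log2 fold of -0.14. Mzb1, a B cell cochaperone of the ER Hsp90 that is known for its part in antibody assembly and secretion, had 5133 in GC PP and 5705 in GC pLN cells, against 85.4 in naive PP and 1606 in naive pLN cells. GC cells exceeded naive cells at least 11.7-fold with the naive PP array set to its detection level (log2 3.75 ± 0.68, limma adjusted p = 0.00158). The GC arrays were close to each other and the naive arrays far apart. Dnajb9, a BiP cochaperone, had 2483 in GC PP and 1458 in GC pLN cells, against 253.1 in naive PP and 973.4 in naive pLN cells (3.83-fold, log2 1.90 ± 0.54, limma adjusted p = 0.0156). The Dnajb9 difference was mostly that of PP, with a log2 fold of 3.22 there and 0.58 in pLN, and its call was lost without the naive PP array (0.96, limma adjusted p = 0.0655), without the GC PP array (1.52, limma adjusted p = 0.134) and without the tissue block (limma adjusted p = 0.0577). Hyou1, which exchanges the nucleotide of BiP, had 897.7 in GC PP and 572.4 in GC pLN cells, against 223.3 in naive PP and 275.7 in naive pLN cells (2.89-fold, log2 1.48 ± 0.43, limma adjusted p = 0.0172). Under quantile normalization and cyclic loess Hyou1 stood at 0.91 and 0.92 and did not pass (limma adjusted p = 0.0759 and 0.0606), nor did it without the GC PP array (1.16, limma adjusted p = 0.285) or the GC pLN array (1.80, limma adjusted p = 0.0798).

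The main chaperones of the ER lumen did not pass. Hspa5 (BiP), the ER Hsp70 that holds unfolded chains and keeps the stress sensors inactive, had 6258 in GC PP and 6522 in GC pLN cells, against 12031 in naive PP and 13626 in naive pLN cells. Both naive arrays were above both GC arrays, but the difference missed the threshold (log2 -1.0 ± 0.43, limma adjusted p = 0.0776), and its other tested probe set gave -0.88. It passed as lower on the deposited signals (limma adjusted p = 0.0256) and with no tissue block (0.0353). Hsp90b1 (GRP94, the ER Hsp90) had 3242 in GC PP and 2704 in GC pLN cells, against 6754 in naive PP and 3885 in naive pLN cells by its brightest probe set (log2 -0.79 ± 0.39, limma adjusted p = 0.117). Its other probe set had 4324 in GC PP and 3122 in GC pLN cells, against 214.9 in naive PP and 844.0 in naive pLN cells, a log2 fold of 3.05 (limma adjusted p = 7.27e-06 over all probe sets). The 2 probe sets of this one gene thus pointed in opposite directions in both tissues. Dnajc3, a BiP cochaperone also known to inhibit PERK, had 1554 in GC PP and 1461 in GC pLN cells, against 5800 in naive PP and 3913 in naive pLN cells, and fell by 1.65 ± 0.37 on the log2 scale (limma adjusted p = 0.00505). Another of its probe sets read 1298 in GC PP and 1398 in GC pLN cells, against 3.23 in naive PP and 70.5 in naive pLN cells, where it was below the detection level on both. Over its 5 probe sets the log2 fold ran from -1.65 to 5.13, and their mean gave 1.18 (limma adjusted p = 0.0118), so the direction of Dnajc3 depends on the probe set. Without the GC PP or the GC pLN array the lower call of Dnajc3 did not pass (limma adjusted p = 0.0705 and 0.0797).

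Sdf2l1, a partner of BiP and Dnajb11, had 694.3 in GC PP and 591.2 in GC pLN cells, against 281.9 in naive PP and 319.9 in naive pLN cells, just outside the threshold (log2 1.06 ± 0.41, limma adjusted p = 0.0548), and passed under several alternatives (0.0203 with the mean of probe sets to 0.0487 when genes are read by the brightest probe set of the naive arrays). Dnajb11, a BiP cochaperone, and Manf and Creld2, proteins known to be induced by ER stress, had log2 folds of -0.25, -0.64 and -0.02 and did not pass.

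Of the disulfide isomerases, which form and shuffle the disulfide bonds of folding proteins, 2 of 4 rose. P4hb (PDI) had 5607 in GC PP and 5500 in GC pLN cells, against 1777 in naive PP and 3638 in naive pLN cells (2.18-fold, log2 1.12 ± 0.41, limma adjusted p = 0.0433). Pdia3 (ERp57), which works with the lectin chaperones, had 3090 in GC PP and 3111 in GC pLN cells, against 945.8 in naive PP and 1916 in naive pLN cells (2.30-fold, log2 1.19 ± 0.39, limma adjusted p = 0.0288). In both genes the GC arrays were almost equal and the naive arrays differed. The P4hb call was lost with no filter on dim genes, no tissue block or no intensity trend (limma adjusted p = 0.0548, 0.0654 and 0.0587), and that of Pdia3 with no tissue block (0.0547) or with the mean of its 2 probe sets, which disagree (0.28, limma adjusted p = 0.491). Without the GC PP or the GC pLN array neither gene passed, at limma adjusted p = 0.258 and 0.233 for P4hb and 0.204 and 0.194 for Pdia3. Pdia4 had 195.3 in GC PP and 90.2 in GC pLN cells, and was below the detection level on both naive arrays, at least 1.34-fold higher in GC cells (limma adjusted p = 0.219). Pdia6 had a log2 fold of -0.62.

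ER-associated degradation had 3 of 5 genes higher and 0 lower, with log2 folds from 0.68 to 2.41. Sel1l, the adaptor that links misfolded proteins to the ubiquitin ligase HRD1, had 2933 in GC PP and 3554 in GC pLN cells, against 403.0 in naive PP and 878.2 in naive pLN cells (5.43-fold, log2 2.41 ± 0.38, limma adjusted p = 0.000764). Derl1, a membrane protein of the retrotranslocation channel, had 4070 in GC PP and 3476 in GC pLN cells, against 561.0 in naive PP and 1355 in naive pLN cells (4.31-fold, log2 2.09 ± 0.42, limma adjusted p = 0.00291). Edem1, which marks misfolded glycoproteins for disposal, had 2424 in GC PP and 2598 in GC pLN cells, against 1013 in naive PP and 1254 in naive pLN cells (2.23-fold, log2 1.14 ± 0.36, limma adjusted p = 0.025). Each was higher on both GC arrays than on either naive array. With the probe set that is brightest on the naive arrays in its place, Sel1l gave -0.04 (limma adjusted p = 0.948) and Derl1 0.04 (limma adjusted p = 0.939). Edem1 did not pass without the GC PP array (limma adjusted p = 0.20) or the GC pLN array (limma adjusted p = 0.232). Derl2 and Herpud1 had log2 folds of 0.77 and 0.68 and did not pass, but did with quantile normalization (limma adjusted p = 0.0176 and 0.00713) and cyclic loess (0.021 and 0.015), and Derl2 with the mean of probe sets (0.0124).

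None of the 3 listed sensors and transcription factors passed the main test. Atf4, translated when the kinase PERK slows other protein synthesis, had 4956 in GC PP and 5662 in GC pLN cells, against 9203 in naive PP and 11370 in naive pLN cells (log2 -0.95 ± 0.42, limma adjusted p = 0.0823). Its other tested probe set gave -0.02, and Atf4 passed as lower on the deposited signals (limma adjusted p = 0.0295) and with no tissue block (0.0456). It also passed with the mean of all its probe sets (-1.05, limma adjusted p = 0.0211). That mean includes a probe set at -2.19 that was below the detection level on all arrays and was not tested. Atf6 had a log2 fold of 0.60 with its 3 probe sets between 0.60 and 1.36 and passed with their mean (limma adjusted p = 0.0249), and Ern1, which encodes the sensor IRE1, -0.24 with opposite signs in the tissues.

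The plasma cell factors split. Ell2, an elongation factor known to favour secretory over membrane heavy chain mRNA in plasma cells, had 3473 in GC PP and 2729 in GC pLN cells, against 589.5 in naive PP and 1241 in naive pLN cells (3.60-fold, log2 1.83 ± 0.42, limma adjusted p = 0.00532). Both GC arrays were above both naive arrays, but the call was lost without the GC PP array (1.66, limma adjusted p = 0.0751). Sdc1, which encodes the plasma cell surface proteoglycan CD138, had 2024 in GC PP cells against 480.4 in naive PP cells, and 499.1 in GC pLN cells against 904.4 in naive pLN cells. By this brightest probe set GC cells were thus above naive cells in PP and below them in pLN. The mean over the tissues did not pass (log2 0.60 ± 0.57, limma adjusted p = 0.407). In bulk samples of this kind, fewer cells of a type and less RNA per cell cannot be told apart.

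**Figure D2:**
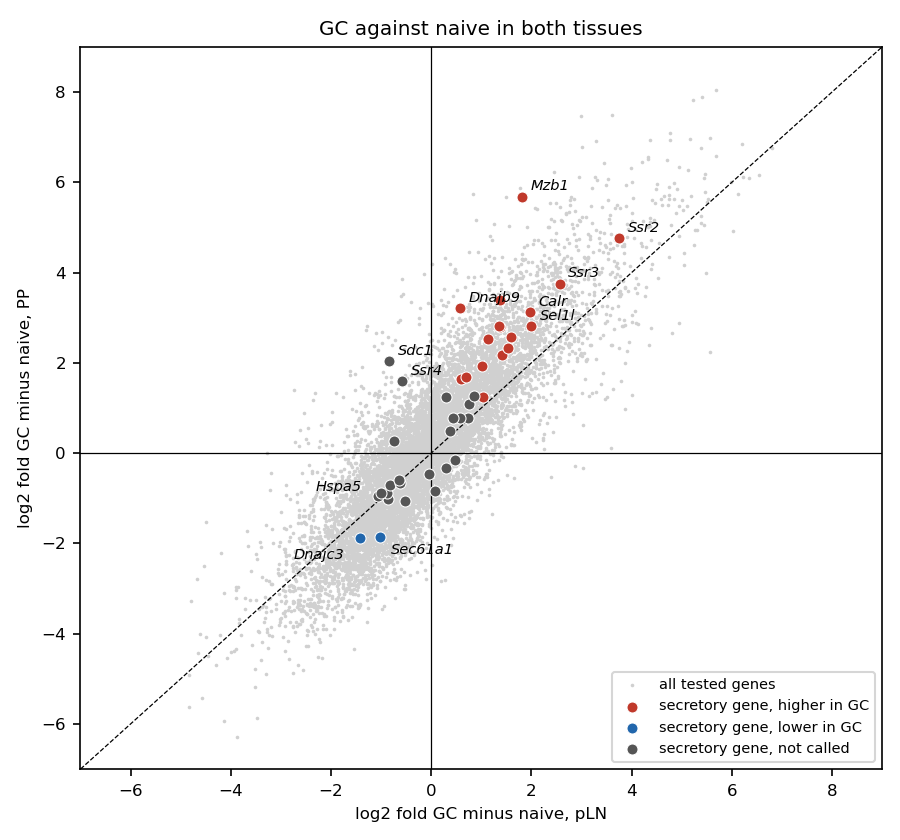
Log2 fold of GC minus naive in pLN (horizontal) and in PP (vertical) for all 10191 tested genes (grey) and the 41 secretory genes, coloured by the limma call over the tissues. The 17 genes that rose lie above the dashed line of equal folds, and Sdc1 and Ssr4 are among the 6 with opposite signs.

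The sign of the GC minus naive fold was the same in both tissues for 35 of the 41 genes. Per tissue, where 1 array meets 1 array and no test is possible, 22 genes (53.7%) were at least 2-fold higher in GC cells in PP, against 30.7% of all tested genes, and 14 (34.1%) in pLN, against 20.3%. At least 2-fold lower were 4 genes in each tissue (9.76%), against 27.1% of all tested genes in PP and 23.6% in pLN. All 17 genes that rose had the larger fold in PP, as did 81.2% of all genes called higher. In these 17 genes the GC PP signal was between 0.79 and 1.70 times that of GC pLN. The naive PP signal was between 0.22 and 0.81 times that of naive pLN in the 15 of them above the detection level in naive PP, which leaves out Ssr2 and Mzb1. The naive PP array also had the highest 3′ to 5′ ratios given above and the highest detection level, and its 9 hybridisation spike-in probe sets had a median signal of 11570, against 3071 for GC PP, 3217 for GC pLN and 4588 for naive pLN. The part of these in the larger folds was not tested.

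**Figure D3:**
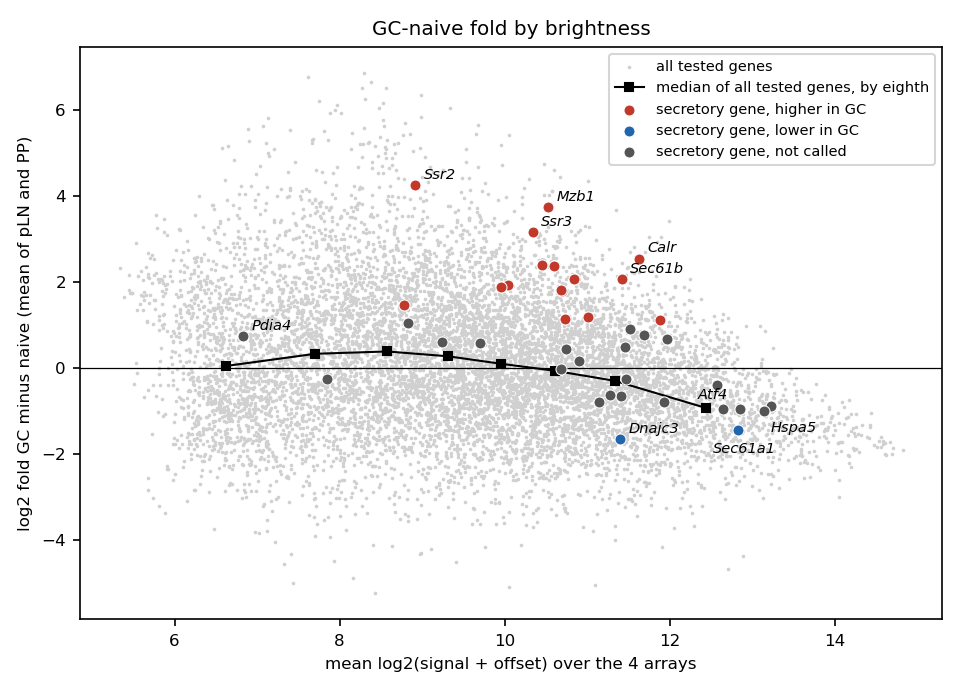
Log2 fold of GC minus naive, averaged over the tissues, against the mean log2(signal + offset) over the 4 arrays for all tested genes (grey) and the 41 secretory genes. The black squares are the medians of all tested genes in 8 bins of brightness and fall to -0.92 in the brightest bin, where Sec61a1, Hspa5 and Atf4 lie.

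The fold moved with brightness over all genes. In the brightest eighth of the tested genes the median log2 fold was -0.92, with 3.92% of genes higher and 41.4% lower in GC cells. Of the secretory genes, 9 fell in that eighth, with a median of -0.88, and 1 of them rose (P4hb) and 1 fell (Sec61a1). Hspa5, Atf4, Tram1 and Sec11c were among the 9, so their values lie near the median of equally bright genes. The sixth eighth held 12 secretory genes with a median of 1.96, of which 9 rose and 0 fell, whereas all genes of that eighth had a median of -0.06 with 22.1% higher and 23.5% lower. In the seventh eighth 3 of 11 secretory genes rose and 1 fell, with a median of 0.51 against -0.29 over all its genes. Of the 17 genes that rose, 13 lay in the 3 brightest eighths, which also held most of the module (12, 11 and 9 genes). The medians over all genes were negative there, though only -0.06 in the sixth, where 9 of the 13 lay.

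**Figure D4:**
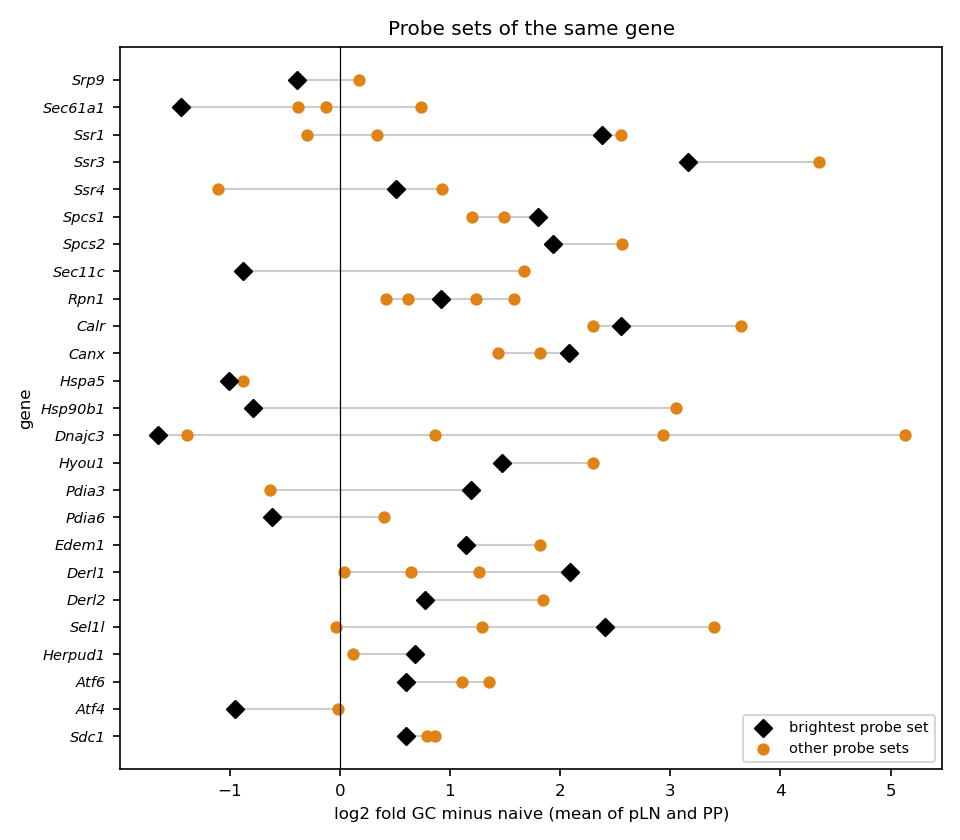
Log2 fold of GC minus naive, averaged over the tissues, of each tested probe set of the 25 secretory genes that have several (diamond, the brightest, which stands for the gene; orange, the others). Points of a gene on both sides of the zero line mark the 10 genes whose probe sets differ in sign, widest in Dnajc3.

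Several genes were read by more than 1 probe set, and these did not always give the same answer. Of the 25 secretory genes with several tested probe sets, 13 were higher in GC cells by all of them, 2 (Hspa5 and Atf4) lower by all, and 10 (40.0%) had both signs, against 48.3% of the 4962 such genes overall. In 17 of the 25 (68.0%, against 69.3% overall) the brightest probe set gave a lower fold than the mean of the others. Fitted singly, 41 of the 86 tested probe sets of the module (47.7%) rose and 4 (4.65%) fell, against 31.2% and 17.8% of all 18880. Sel1l, Ssr1 and Pdia3 rose by the probe set that stands for them and had at least 1 probe set with a negative fold, of -0.04, -0.30 and -0.63. Position of the probe sets along the transcripts was not analysed here, so the part of the 3′ bias of the naive arrays in these splits was not tested.

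The promoter letters were set beside these values. The 7 genes whose promoter holds the ER stress element had a median log2 fold of -0.62, with 2 that rose (Calr and Canx) and 1 that fell (Dnajc3), while the other 24 promoters belonged to genes with a median of 0.99. Of the genes with the element, Hsp90b1, Dnajc3 and Pdia6 had probe sets of both signs. These ran from -0.79 to 3.05, from -1.65 to 5.13 and from -0.62 to 0.40. The negative median thus depends on the probe set that stands for each gene. The comparison is a description of chosen genes and carries no test.

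The second comparison was PP against pLN. By limma with cell type as the other term, 0 of the 41 genes were higher and 0 lower, against 0.108% and 0.0196% of all tested genes (11 and 2 genes). At an unadjusted p under 0.05 there were 2 of the 41 genes and 602 of all, and the lowest limma adjusted p in the module was 0.756, for Mzb1 (log2 -2.09 ± 0.68). On the signals as deposited 3 genes were called lower, and with an offset of 100 added before the logarithm 1 was.

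GC cells of the 2 sites had similar levels of most of these genes, as of most tested genes. Between the GC PP and GC pLN arrays, 36 of 41 genes were within 1.5-fold, near the 84.5% of all tested genes. At least 2-fold higher in GC PP were 3 genes (7.32%, against 3.72% of all genes): Sdc1, Ern1 and Pdia4. At least 2-fold lower were 0 of the 41 (against 1.64%). Sdc1 was 4.06-fold higher on the GC PP array by its brightest probe set, and 4.78-fold (1278 against 267.4) and 3.23-fold (388.3 against 120.3) by its other tested ones. Ern1 stood at 298.2 in GC PP and 128.2 in GC pLN cells (2.33-fold), and Pdia4 at 195.3 in GC PP and 90.2 in GC pLN cells (2.17-fold), both dim. Of the other plasma cell markers, Prdm1 had 1007 in GC PP and 118.4 in GC pLN cells, whereas Jchain, Xbp1, Irf4, Slamf7 and Tnfrsf13b had log2 differences between GC PP and GC pLN of 0.20, 0.33, 0.58, 0.07 and -0.24, and Tnfrsf17 and Cd28 were below the level on all arrays. Igha, the IgA heavy chain, followed site in both cell types, with 14680 in GC PP and 278.6 in GC pLN cells, and 21320 in naive PP and 41.2 in naive pLN cells, and is counted in the list's summed signals of 40310 in GC PP and 21690 in GC pLN cells. On each GC array 7 of the 9 measured genes were above the level. Gut epithelial markers also moved with site, with 7 of 10 above the level on either PP array and 2 of 10 on either pLN array. Their summed signals were 2544 in GC PP and 900.8 in GC pLN cells, and 5443 in naive PP and 1384 in naive pLN cells, and the part of other cells in the Sdc1 difference was not tested.

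**Figure D5:**
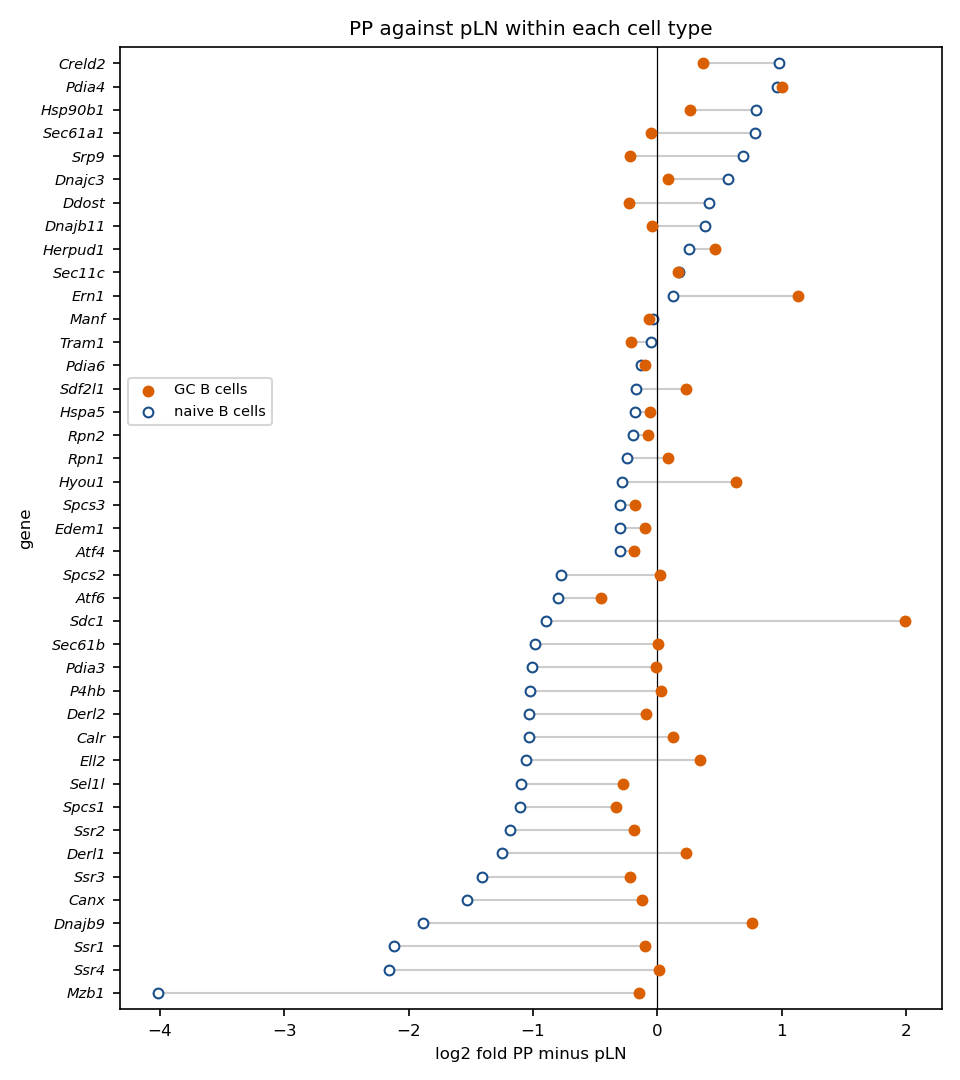
Log2 fold of PP minus pLN for each of the 41 genes in GC cells (filled) and naive cells (open), ordered by the naive value. GC values lie between -0.46 and 1.13 except for Sdc1 at 1.99, while naive values reach down to -4.02 for Mzb1, which was below the detection level in naive PP.

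Naive cells varied more between the sites, in these genes as over all tested genes. Within 1.5-fold were 17 of 41 genes, against 51.3% of all tested genes. At least 2-fold lower in naive PP were 15 genes (36.6%, against 15.7% of all genes), and 0 were at least 2-fold higher (against 8.15%). With signals below the detection level set to it, 14 were at least 2-fold lower. The lowest was Mzb1, at 85.4 in naive PP, below the detection level there, against 1606 in naive pLN cells, at least 12.1-fold lower. Ssr4, Ssr1 and Dnajb9 came after it, with log2 folds of -2.16, -2.12 and -1.88. At the other end, Creld2, the ER stress-induced protein, had 2307 in naive PP and 1164 in naive pLN cells, a log2 fold of 0.98. The gut epithelial markers given above were higher here too, and their part was not tested. These are differences of 1 array from 1 array, and they share arrays with the GC minus naive folds given above.

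The rest of the pathway was read through 86 other genes, of which 81 were tested. Of these, 20 rose (24.7%, near the 22.9% of all tested genes), 13 fell (16.0%, against 22.6%) and 48 did not pass in GC against naive cells, with a median log2 fold of 0.18. Transport from the ER to the Golgi had 8 genes higher (36.4%) and 3 lower (13.6%) of 22. For Sec24a, a cargo adaptor of the COPII coat, GC cells exceeded naive cells at least 15.1-fold. Its signals were 1746 in GC PP and 1280 in GC pLN cells. Both its naive signals were below the detection level, so only its GC arrays brought it into the test. The naive side of its higher call is thus background signal. The paralogous small GTPases that start the coat went opposite ways, with Sar1b 4.84-fold higher (limma adjusted p = 0.000923) and Sar1a lower (log2 -1.47, limma adjusted p = 0.0116). For Sar1b the signals were 2335 in GC PP and 2828 in GC pLN cells, against 547.2 in naive PP and 514.3 in naive pLN cells, and for Sar1a 2992 and 3287 in GC cells, against 8836 and 8622 in naive cells. Sec61a2, the second alpha subunit, was at least 3.56-fold higher with the naive PP array at its detection level (limma adjusted p = 0.00516).

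N-glycosylation beyond the 3 listed subunits had 6 genes higher (40.0%) and 4 lower (26.7%) of 15, against 22.9% and 22.6% of all tested genes. Ostc, a subunit of the oligosaccharyltransferase, was 10.4-fold higher (limma adjusted p = 0.000215) and its catalytic subunit Stt3a 5.20-fold higher (limma adjusted p = 0.000881), while Krtcap2, another subunit, fell by 2.50 on the log2 scale (limma adjusted p = 0.00296). Krtcap2 had 3990 in GC PP and 4179 in GC pLN cells, against 41677 in naive PP and 12842 in naive pLN cells, and its other tested probe set gave 0.63. The other probe sets of Ostc and Stt3a were positive down to 0.49 and 0.24.

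Among other folding factors 0 rose and 3 fell of 11 (27.3%, against 22.6% of all tested genes). Sil1, a nucleotide exchange factor of BiP like Hyou1, fell by 2.18 on the log2 scale (limma adjusted p = 0.00109). Sdf4, a calcium-binding protein of the Golgi lumen, fell by 1.44 (limma adjusted p = 0.014), with another of its probe sets at 1.24. Of 11 further degradation factors 2 rose (18.2%, against 22.9% of all tested genes) and 1 fell (9.09%, against 22.6%). That was Erlec1, a lectin of the degradation machinery (log2 -1.91, limma adjusted p = 0.00246), whose probe sets ran from -1.91 to 2.15. The regulators of the response had 2 of 11 higher (18.2%) and 1 lower (9.09%), also below the shares of all tested genes. Mbtps2, the protease that releases ATF6, was at least 4.84-fold higher. Both its naive signals were below the detection level, so it entered the test only through its GC arrays. Eif2ak3, which encodes PERK, was 2.89-fold higher (limma adjusted p = 0.0106), with its 3 probe sets between -0.86 and 1.51. Ddit3 (CHOP), a target of ATF4, fell by 1.42 (limma adjusted p = 0.0106), with its other probe set at 1.60. Xbp1, the factor spliced by IRE1, had 3333 in GC PP and 2647 in GC pLN cells, against 1316 in naive PP and 2092 in naive pLN cells. By this brightest probe set it did not pass (log2 0.83 ± 0.39, limma adjusted p = 0.103). The 4 tested probe sets of Xbp1 were all positive, from 0.82 to 3.79.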

How the data were processed

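Single-colour Affymetrix arrays with 45101 probe sets were run on 4 pooled B cell samples. The deposited values are linear intensities, each array divided to a median of 1; GCOS made the signals, per the submitters' processing notes, whose algorithm and target the sources used here do not state. Because their 2% trimmed means differed (7.35 to 10.0), all arrays were brought to 500 by that mean. Scaling assumes that the bulk of signals is equal between arrays. An offset of 14.6 (the median signal of the 98 probe sets of 54 other-tissue genes) was added before log2. Folds on this log2 scale understate the change of dim genes, and "-fold" values are ratios of signals, as geometric means over the tissues where cell types are compared. Between 8588 genes (naive PP) and 10777 genes (GC pLN) were above the detection level.

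Probe sets were named from the platform annotation, in which 34958 had 1 symbol, 932 several and 9211 none; 34754 matched the RefSeq table by Entrez identifier. Each gene was represented by its brightest probe set. Probe sets whose name ends in x_at can bind related transcripts, among them those standing for Calr and Rpn1. A gene was tested if its signal exceeded the level on both GC, both naive, both PP or both pLN arrays. The test was limma (version 3.58.1, R 4.3.3), with terms for cell type and tissue, an intensity trend and Benjamini-Hochberg adjustment. Spread was estimated with 1 residual degree of freedom (prior 10.2). The code was tested on simulated data. Comparisons of single arrays had no test. Probe sets fitted singly were adjusted over 18880.

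Named were all called genes, the 6 uncalled genes with the largest folds, and the 6 highest and 6 lowest called genes of the other pathway genes; further genes were named after their values were seen. The module, the lists and this rule were chosen with earlier results of these data known. Alternatives changed the normalization, the offset, the filter on dim genes, the probe set used, the tissue block, the trend and the call rule, or left out 1 array. Fits with 1 array left out had a term for cell type or for tissue alone. Promoters are RefSeq's (GRCm38.p6). Protein sequences were not analysed here.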

Additional observations from a re-analysis of the deposited data

Results flagged for a closer look

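The GC minus naive log2 fold had opposite signs in PP and pLN for 6 of the 41 genes, each from 1 array against 1 array, and the difference between the tissues was not tested. It was 2.04 in PP and -0.84 in pLN for Sdc1, the plasma cell surface proteoglycan, and 1.59 in PP and -0.58 in pLN for Ssr4, the TRAP subunit. For Ern1, the stress sensor IRE1, it was 0.26 in PP and -0.74 in pLN. The remaining 3 ran the other way: Srp9 had -0.84 in PP and 0.0698 in pLN, and Creld2 -0.33 in PP and 0.29 in pLN. Ddost, an oligosaccharyltransferase subunit, had -0.15 in PP and 0.48 in pLN. These are the signs of each gene's brightest probe set. For Ssr4 the other tested ones gave -1.06 in PP and -1.15 in pLN, and 1.64 in PP and 0.22 in pLN. For Sdc1 they gave 2.40 in PP and -0.82 in pLN, and 1.73 in PP and 0.0075 in pLN. For Srp9 the other tested probe set gave 0.0086 in PP and 0.34 in pLN.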

How the results depend on the processing

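The count of secretory genes higher in GC cells was between 16 and 21 under the other settings and between 11 and 22 with 1 array left out. The count lower was 2, and became 3 with quantile normalization, 1 with cyclic loess, 6 on the deposited signals, 1 with the mean of all probe sets (which tested 40 of the genes) and 5 with no tissue block; with 1 array left out it ran from 0 to 11. The median log2 fold lay between 0.54 and 0.99, and between 0.61 and 1.05 with 1 array left out, while the median of all tested genes moved from -0.07 to -0.24 (quantile), -0.17 (cyclic loess), -0.20 (as deposited), 0.23 (mean of probe sets) and -0.32 (no filter on dim genes). Over all genes, 985 to 3303 were higher and 738 to 3064 lower with 1 array left out. For PP against pLN, genes called lower were 3 on the deposited signals and 1 with an offset of 100, and ran from 0 to 1 with 1 array left out (1 without GC PP). Of the 17 genes that rose, 11 kept the call in all 13 settings other than leaving out an array. Signs turned for Srp9 (0.18 quantile, 0.29 cyclic loess), Sec11c (0.0592 cyclic loess, 0.396 mean of probe sets), Dnajb11 (0.0098 cyclic loess), Sec61a1 (0.12), Hsp90b1 (1.13) and Dnajc3 (1.18), these 3 with the mean of probe sets, and Sel1l (-0.0382, probe set brightest on the naive arrays). With an array left out, 5 genes had values of both signs: -0.508 (without naive pLN) to 0.471 (without naive PP) for Creld2, also 0.163 without GC pLN; -0.802 (without GC PP) to 0.33 (without GC pLN) for Ern1; -0.0421 (without naive pLN) to 0.37 (without naive PP) for Ddost; -0.393 (without GC PP) to 1.6 (without GC pLN) for Sdc1; and -0.573 (without naive PP) to 1.59 (without naive pLN) for Ssr4. Where probe sets were averaged or replaced, the value rests on other probe sets of the gene. For Sec61a1 the tested ones ran from -1.44 to 0.73, and the mean also took in dim, untested ones at 0.33 and 1.58. Elsewhere the cause was not tested. The tissue block pairs the GC and naive arrays of a site. Without it 16 genes rose and 5 fell on all arrays. The fits with 1 array left out also lacked it. With 1 array a group, variation between mice is unknown, and signals near the detection level give bounds only.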
